A study of Arabidopsis thaliana with 20 samples.

Results

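Superoxide dismutases are the enzymes that turn superoxide into hydrogen peroxide and oxygen, and their transcripts are described here in unopened flower buds of Arabidopsis thaliana. The set held 8 genes, chosen by their locus identifiers out of 28775 in the gene count tables: the iron enzymes FSD1 (AT4G25100), FSD2 (AT5G51100) and FSD3 (AT5G23310), the copper/zinc enzymes CSD1 (AT1G08830), CSD2 (AT2G28190) and CSD3 (AT5G18100), the copper chaperone CCS (AT1G12520) and the manganese enzyme MSD1 (AT3G10920). All 8 were listed in every table, including those of small RNA, where 27162 transcripts were listed. The set was proposed with the high NAD capture ratio of FSD1 already known, so capture values of the members are given below as a description, with no test. Genes on lists beside the members were tested in the capture. Those lists were also chosen with earlier results known, so their calls are description and no test of the members.

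Each form of the enzyme needs its own metal and works in its own compartment. When copper is scarce, the transcription factor SPL7 switches on FSD1 and the microRNA genes of the miR398 family, miR398 directs cleavage of the CSD1, CSD2 and CCS messages and of COX5b-1, and the plant replaces copper/zinc enzymes with the iron enzyme FSD1. FSD2 and FSD3 sit in plastids beside the plastid RNA polymerase, CSD1 is cytosolic, CSD2 plastidic, CSD3 peroxisomal and MSD1 mitochondrial, and CCS hands copper to the CSD enzymes.

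The 20 libraries formed 10 groups of 2, all from unopened flower buds of plants about 4 weeks old, grown in 16 h light and 8 h dark. Small RNA was read in dxo1 rdr6, dxo1 and Col-0. Captured RNA, labelled as NAD capped, total RNA and polyA RNA were each read in dxo1 and in Col-0, and GMUCT in dxo1 alone. DXO1 encodes an enzyme that removes the NAD cap, a nicotinamide dinucleotide in place of the usual 5′ cap, and RDR6 encodes an RNA polymerase that makes RNA double-stranded for silencing. GMUCT reads uncapped and cleaved transcripts from their 5′ ends. Col-0 is the wild type, and every other group carries dxo1. The labels do not give the dxo1 or rdr6 alleles or the number of plants behind a library, so p-values measure only the spread between the libraries of a group.

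Library totals in genes were 1144896 to 3178702 in the capture, 2576448 to 8309456 in total RNA, 19769742 and 30883266 in GMUCT, and 10100250 to 16833010 in polyA RNA. All 9 genes on a list of flower organ identity had counts in all 14 libraries. Replicate 1 of Col-0 capture stood apart from replicate 2, with a summed level of those genes of 566 CPM, the count scaled to a fixed library size, against 1603 CPM. DXO1 itself did not separate the labels: in total RNA it had 511 and 9.27 CPM in dxo1, against 28.5 and 25.2 CPM in Col-0. The dxo1 libraries numbered 1 of total RNA, polyA RNA and GMUCT carried 26.5 to 78.3 times as much DXO1 as those numbered 2. In small RNA it had 4618 CPM in dxo1 replicate 1 and 36.3 CPM in replicate 2.

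In the captured RNA, FSD1 stood far apart from the other 7 genes. It had 249 and 104 counts in the dxo1 capture libraries, against 6 and 6 in dxo1 total RNA. In Col-0 it had 95 and 52 counts in the capture, against 1 and 0 in total RNA, where 0 counts allow up to 1.16 CPM. Scaled by TMM factors within the fit of the capture and total RNA libraries, those counts are 58.1 and 46.8 CPM in dxo1 capture and 1.75 and 0.853 CPM in dxo1 total RNA, and 110.0 and 21.3 CPM in Col-0 capture against 0.213 and 0 CPM in Col-0 total RNA. Capture was above total RNA in every library of both genotypes, while dxo1 capture lay between the 2 Col-0 capture libraries.

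The summed FSD1 counts, over scaled library sizes, gave a ratio of capture to total RNA of 47.4 in dxo1 (95% exact interval 26.8 to 92.6, for counting error only). The Col-0 ratio was 310 (54.8 to 12327), and it rests on 1 count in total RNA. On the log2 scale of the fit the values were 5.45 in dxo1, rank 89 of 17718 genes, and 8.37 in Col-0, rank 35. The Col-0 value ranged from 6.90, without the capture library of replicate 1, to 10.61 when 1 library was left out in turn. The difference of those log2 ratios, dxo1 minus Col-0, was -2.92.

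PolyA RNA gives a reference in which FSD1 was well counted, and against it the ratio was smaller. FSD1 had 140 and 51 counts in dxo1 polyA RNA and 50 and 57 counts in Col-0 polyA RNA. Capture stood 9.66 times above polyA RNA in dxo1 (8.08 to 11.6) and 18.7 times above it in Col-0 (14.5 to 24.3). On the log2 scale of a fit of the capture and polyA RNA libraries that is 3.26 in dxo1, rank 363 of 19821 genes, and 4.57 in Col-0, rank 296. Total RNA over polyA RNA, set out the same way, was low for FSD1, at -2.21 in dxo1 and -3.93 in Col-0, and 0.718% and 0.321% of 19628 genes lay lower still.

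**Figure D1:**
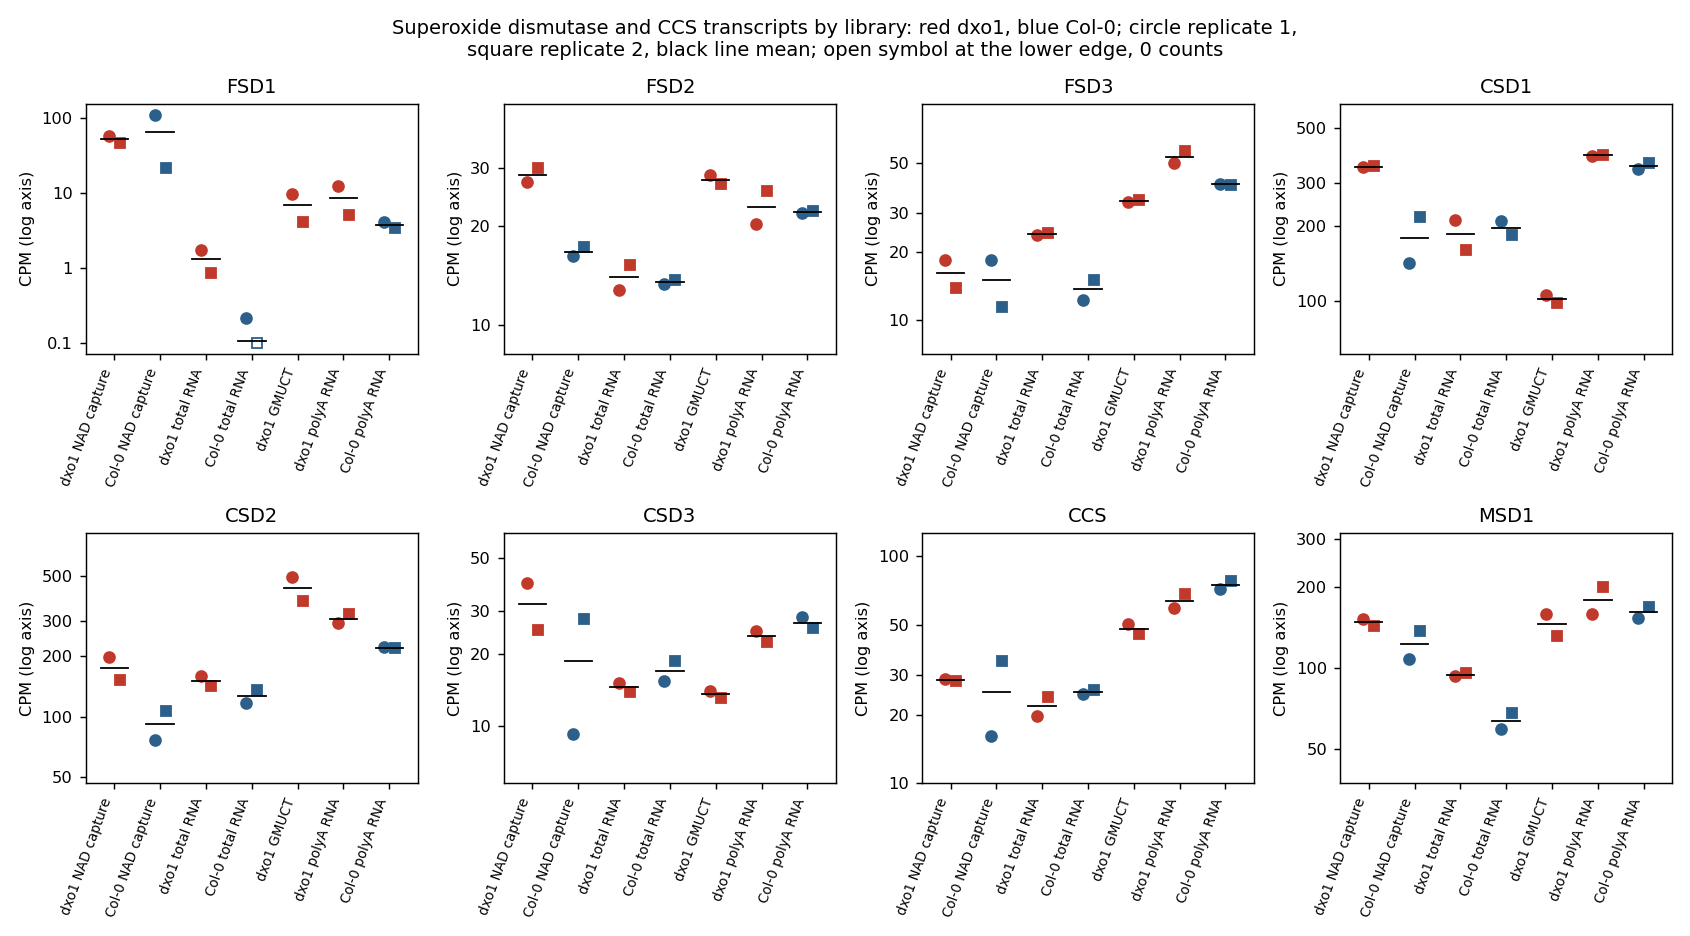
Level of each gene in each library of gene counts, in CPM (log axis) scaled by TMM within the fit of each assay, with 1 panel per gene. Within each panel, groups run from dxo1 NAD capture on the left to Col-0 polyA RNA on the right. FSD1 is highest in the captured RNA and lowest in total RNA, with an open square for its 0 counts, while CSD1 is lowest and CSD2 highest in GMUCT. Levels are not comparable between panels, because counts were not divided by transcript length.

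The other iron enzymes did not share the FSD1 pattern. FSD2 had 27.3 and 30.1 CPM in dxo1 capture against 12.8 and 15.2 CPM in dxo1 total RNA, and 16.2 and 17.2 CPM in Col-0 capture against 13.4 and 13.7 CPM in Col-0 total RNA. Its capture libraries lay above its total RNA libraries in both genotypes, by log2 1.02 in dxo1 and 0.32 in Col-0. FSD3 had 18.4 and 13.9 CPM in dxo1 capture against 23.9 and 24.3 CPM in dxo1 total RNA, and 18.5 and 11.5 CPM in Col-0 capture against 12.3 and 15.1 CPM in Col-0 total RNA. In dxo1 the FSD3 capture libraries were both lower, with log2 -0.55, and in Col-0 the ranges overlapped, with log2 0.05.

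The copper/zinc enzymes, like FSD2 and CCS, had a higher log2 ratio in dxo1 than in Col-0, a difference given without a test. CSD1 was at 0.90 in dxo1 and -0.12 in Col-0, CSD2 at 0.21 in dxo1 and -0.45 in Col-0, and CSD3 at 1.19 in dxo1 and 0.32 in Col-0. CSD2 overlapped between capture and total RNA in dxo1, where it had 197 and 152 CPM in the capture against 160.0 and 142 CPM in total RNA. CSD1 had 345 and 350 CPM in dxo1 capture against 212 and 161 CPM in dxo1 total RNA, with no overlap. In Col-0 it had 142 and 217 CPM in capture against 209 and 184 CPM in total RNA, with overlap. CSD3 had 9.27 and 27.9 CPM in the Col-0 capture libraries. The Col-0 ratios turned on single libraries: with 1 left out in turn, CSD3 ranged from -0.86 to 0.73, CSD1 from -0.48 to 0.12 and CSD2 from -0.73 to -0.26.

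CCS, the chaperone, had log2 ratios of 0.37 in dxo1 and 0.12 in Col-0, the Col-0 value ranging from -0.65 to 0.43 in the same way. MSD1, the mitochondrial enzyme, had 152 and 143 CPM in dxo1 capture against 92.8 and 95.6 CPM in dxo1 total RNA, and 108 and 137 CPM in Col-0 capture against 59.1 and 67.9 CPM in Col-0 total RNA. Its log2 ratio was 0.64 in dxo1 and 0.96 in Col-0, and the groups did not overlap in either genotype. Against polyA RNA the MSD1 ratio shrank to 0.39 in dxo1 and 0.26 in Col-0. Over the 7 genes other than FSD1, the ratio to polyA RNA ran between -1.01 (FSD3 in dxo1) and 1.15 (CSD3 in dxo1). In the median gene, the ratio to total RNA was 0.04 in dxo1 and 0.06 in Col-0. Scaling by library totals alone moved that median to 0.71 in dxo1 and 0.36 in Col-0, which turns the sign of FSD3 in dxo1 to 0.12 and of CSD1 in Col-0 to 0.23.

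**Figure D2:**
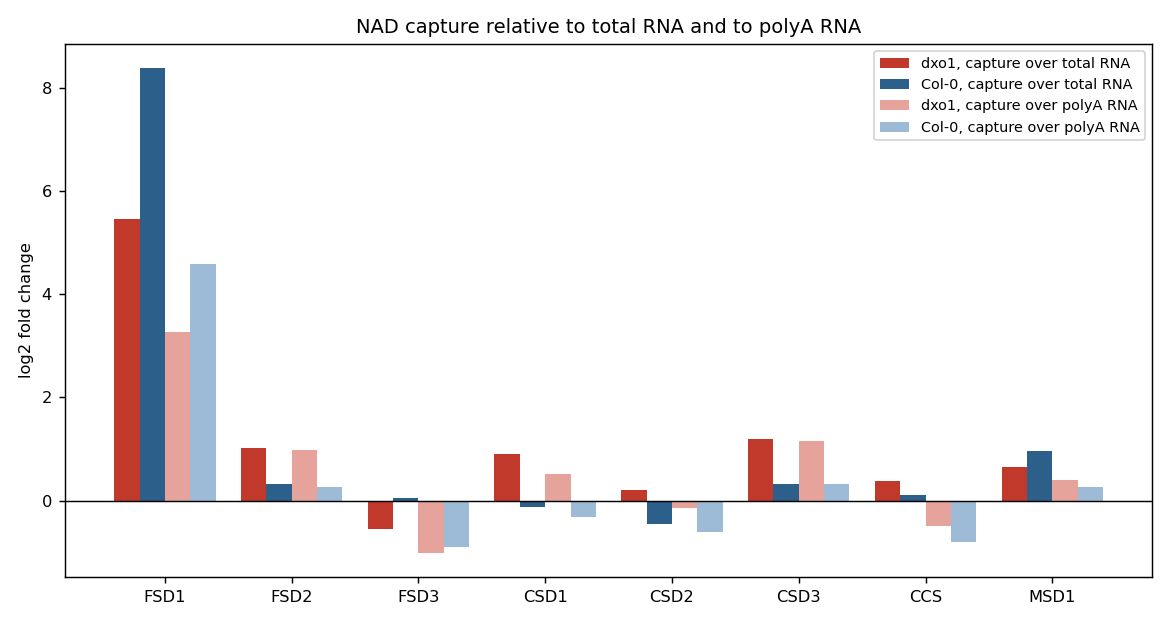
Log2 fold change of NAD capture over total RNA (dark bars) and over polyA RNA (light bars) for each gene, with dxo1 in red and Col-0 in blue. The bars of FSD1 reach 5.45 in dxo1 and 8.37 in Col-0 over total RNA and 3.26 in dxo1 and 4.57 in Col-0 over polyA RNA, and the bars of the other 7 genes lie between -1.01 and 1.19.

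The genes on either side of FSD1 in the annotation showed what was counted nearby. CHLM, 2 genes away, had 342 and 183 counts in dxo1 capture against 258 and 463 in dxo1 total RNA, and 41 and 191 counts in Col-0 capture against 398 and 174 in Col-0 total RNA. AT4G25090, next to FSD1, had 0 counts in all 14 libraries. MC2, next to it on the other side, had at most 4 counts in any capture or total RNA library. SRS2 had 8 and 13 counts in dxo1 capture against 24 and 60 in dxo1 total RNA, and 2 and 9 counts in Col-0 capture against 20 and 18 in Col-0 total RNA. Per library total, CHLM was higher in dxo1 capture (108 and 111 CPM) than in dxo1 total RNA (62.9 and 55.7 CPM). The median gene was also higher in the capture on that scale, as given above. In Col-0 the 35.8 and 106 CPM of CHLM in the capture lay on either side of its 73.6 and 67.5 CPM in total RNA. SRS2 had, per library total, 2.52 and 7.91 CPM in dxo1 capture against 5.85 and 7.22 CPM in dxo1 total RNA. In Col-0 it had 1.75 and 4.98 CPM in the capture against 3.70 and 6.99 CPM in total RNA. On that scale the groups overlapped in both genotypes. The TMM factors used for FSD1 were 1.35 and 1.35 in dxo1 capture and 0.838 and 0.847 in dxo1 total RNA. In Col-0 they were 0.754 and 1.35 in the capture and 0.870 and 0.875 in total RNA. Overlap per library total therefore does not mean overlap on the TMM scale, and these CPM cannot be set against those of FSD1.

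Other genes of copper economy, gathered beside the members in a list of 33, were called in part. Of 19 that passed the filter on low counts, 8 were higher and 2 lower in dxo1, and 8 were higher and 0 lower in Col-0, by the edgeR quasi-likelihood test at an adjusted p under 0.05. Among all 17718 genes, 36.5% were called in dxo1, 18.4% higher, and 24.2% in Col-0, 13.5% higher. The median of the list was 0.72 in dxo1 and 0.64 in Col-0. These counts moved widely with single libraries left out, in both genotypes. Without every dxo1 library numbered 1, no gene of the list was called in dxo1. The numbers called over all genes in those fits were not set beside them, so the shifts cannot be read as particular to copper genes.

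PETE1, a plastocyanin, had 82.2 and 56.2 CPM in dxo1 capture against 17.5 and 20.7 CPM in dxo1 total RNA, and 73.0 and 77.6 CPM in Col-0 capture against 28.3 and 20.4 CPM in Col-0 total RNA. Its log2 ratio was 1.86 in dxo1 and 1.61 in Col-0. The copper chaperone ATX1 followed at 1.43 and 1.31. MIR398C had 43 and 33 counts in dxo1 capture against 8 and 34 in dxo1 total RNA, and 32 and 22 counts in Col-0 capture against 5 and 4 in Col-0 total RNA. In Col-0 capture, FSD1 and MIR398C were both higher in the library of replicate 1, with MIR398C at 37.1 CPM against 9.03 CPM in replicate 2. MIR408, another copper-responsive microRNA gene, picked after its values were seen, stood likewise at 27.8 CPM against 4.52 CPM. PETE1 did not, at 73.0 CPM in replicate 1 against 77.6 CPM in replicate 2. Over polyA RNA in Col-0, the log2 ratio was 6.74 for MIR408, 6.06 for MIR398B and 5.59 for COPT2, above the 4.57 of FSD1. MIR398B had few counts in polyA RNA. Other genes of the list lay below 0 there, such as LAC13 at -2.01 and ARPN at -0.77.

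Of the 10 green tissue genes kept as markers, 6 were higher in the capture and 1, RCA, was lower in each genotype, with medians of 1.95 in dxo1 and 1.65 in Col-0. Their part in the values of the copper list was not tested. The other lists also had calls, read beside the same shares of all genes: hydrogen peroxide removal (1 higher and 1 lower in dxo1, 1 higher and 2 lower in Col-0, of 10), NADPH oxidases (0 higher and 2 lower in dxo1, 0 higher and 1 lower in Col-0, of 6) and proteins of the plastid RNA polymerase (3 higher and 2 lower in dxo1, 1 higher and 2 lower in Col-0, of 10). None of the 2 tested genes of a list of superoxide dismutase helpers was called in either genotype.

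The comparison of dxo1 with Col-0 in polyA RNA asks how transcript levels differ between the genotypes, in the deepest libraries that hold both. CSD2, the plastid copper/zinc enzyme, and FSD3, the plastid iron enzyme, rose in dxo1, and no member fell. Those 2 of 8 genes compare with 30.1% of 19730 genes called in either direction, 15.6% higher and 14.5% lower. The share of members called is close to that of all genes. Median log2 change was 0.15 in the 8 genes and 0.01 in all genes.

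CSD2 had 291 and 325 CPM in dxo1 polyA RNA against 222 and 219 CPM in Col-0 polyA RNA. The groups did not overlap, and the rise was 0.48 ± 0.09 on the log2 scale (SE, n = 2 libraries each, edgeR adjusted p = 0.00989). FSD3 had 49.6 and 56.2 CPM in dxo1 against 40.1 and 39.9 CPM in Col-0, again without overlap. Its rise was 0.40 ± 0.10 (SE, edgeR adjusted p = 0.0221). Both calls were lost when either Col-0 library was left out, where the fit has 3 libraries, with adjusted p of 0.148 and 0.154 for CSD2 and 0.183 and 0.191 for FSD3 at log2 changes of 0.47 and 0.48 and of 0.40. DESeq2 gave FSD3 an adjusted p of 0.0723. With 1 library left out in turn, dxo1 replicate 1 with its high DXO1 included, the changes were 0.40 to 0.56 for CSD2 and 0.31 to 0.49 for FSD3. Such a fit has 1 library in a group, so its calls rest on the spread of the other group alone.

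FSD1 had 12.3 and 5.09 CPM in dxo1 against 4.13 and 3.41 CPM in Col-0. Both dxo1 libraries were higher, and replicate 1 stood well above replicate 2. The log2 change was 1.23 ± 0.40 (SE), with an edgeR adjusted p of 0.0573, and it did not pass the threshold. With only 1 dxo1 library left in the fit, the change was 0.45 without replicate 1 and 1.72 without replicate 2. DESeq2 (adjusted p = 0.0393) and a fit with the replicate number as a block (1.12, edgeR adjusted p = 0.0182) called it.

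FSD1 was higher in the dxo1 library numbered 1 than in that numbered 2 in all 4 assays, by 1.24 times in the capture, 2.03 times in total RNA, 2.47 times in polyA RNA and 2.22 times in GMUCT, per library total. DXO1 itself differed by 55.1, 26.5 and 78.3 times in total RNA, polyA RNA and GMUCT, and by 1.01 times in the capture. MC2, the neighbour of FSD1, had 21 and 3 counts in dxo1 polyA RNA and 74 and 5 counts in GMUCT. How far these move together was not tested.

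The other 5 genes did not pass in polyA RNA. CCS had 59.2 and 68.6 CPM in dxo1 against 71.6 and 78.1 CPM in Col-0, which did not overlap, with log2 -0.23 ± 0.10 (SE, edgeR adjusted p = 0.130). With dxo1 replicate 1 as the only dxo1 library, CCS was at -0.34. CSD1, the cytosolic enzyme, had 385 and 389 CPM in dxo1 against 341 and 361 CPM in Col-0, with log2 0.14 ± 0.08 (edgeR adjusted p = 0.247). CSD3 was at -0.18 ± 0.11, MSD1 at 0.15 ± 0.12 and FSD2 at 0.05 ± 0.13. With dxo1 replicate 2 as the only dxo1 library, MSD1 was at 0.30.

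MIR398C, one of the genes that make the microRNA aimed at CSD1, CSD2 and CCS, rose in dxo1 polyA RNA. It had 142 and 111 counts in dxo1 against 39 and 58 counts in Col-0, or 12.5 and 11.1 CPM in dxo1 against 3.22 and 3.47 CPM in Col-0. All dxo1 values were higher, by 1.81 ± 0.18 on the log2 scale (SE, edgeR adjusted p = 0.00149), and the call held without each library. MIR398B had 2 and 0 counts in dxo1 polyA RNA against 1 and 1 in Col-0 polyA RNA, and MIR398A at most 1 count in any capture or total RNA library, so neither could be compared.

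Of the 19 copper economy genes tested in polyA RNA, 2 rose and 5 fell in dxo1, with a median of -0.03. That share is near the 30.1% of all genes called, and with 1 library left out in turn the list had 1 to 11 calls. MIR398C rose with COPT1, a copper importer, which had 35.3 and 32.5 CPM in dxo1 against 25.4 and 23.97 CPM in Col-0. RAN1, a copper pump of the secretory path, fell to 55.2 and 48.6 CPM in dxo1 against 85.6 and 86.3 CPM in Col-0 (log2 -0.73 ± 0.09, SE, edgeR adjusted p = 0.00277). The laccases LAC4 and LAC17, copper enzymes of the cell wall, fell by 1.17 and by 0.90. COX5b-1, another miR398 target, had 85.4 and 83.9 CPM in dxo1 against 85.7 and 84.1 CPM in Col-0, and did not pass (edgeR adjusted p = 0.974).

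Enzymes that remove the hydrogen peroxide made by superoxide dismutases went in both directions, with 1 of 10 higher and 3 lower, beside 30.1% of all genes called. Each of these 4 calls was lost in 2 of the 4 fits that left out a library, and the list had 0 to 6 calls. CAT3 rose to 1511 and 1297 CPM in dxo1 against 958 and 929 CPM in Col-0, while CAT1 fell to 67.7 and 71.6 CPM in dxo1 against 103 and 103 CPM in Col-0, and CAT2 fell to 276 and 308 CPM in dxo1 against 429 and 432 CPM in Col-0. TAPX, the thylakoid ascorbate peroxidase, fell by 0.52 on the log2 scale. Of 6 NADPH oxidases, which make superoxide outside the cell, RBOHH fell by 1.62, a call lost in 2 of those 4 fits, and no other was called. PTAC6 was the one member of 10 proteins of the plastid RNA polymerase to be called, higher by 0.41 and likewise lost in 2 of 4 fits, and none of the 2 helpers was called.

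Markers of other cells moved in the same libraries. Late pollen and sperm markers summed to 224 and 99.998 CPM in dxo1 polyA RNA against 603 and 582 CPM in Col-0 polyA RNA, and all 5 of 8 that could be tested were lower. Tapetum markers summed to 1966 and 1071 CPM in dxo1 against 3547 and 3834 CPM in Col-0, with 3 of 10 called lower. Green tissue markers summed to 10667 and 11693 CPM in dxo1 against 12924 and 12907 CPM in Col-0, with 4 of 10 called lower. Among all genes tested in polyA RNA, 14.5% were called lower. Their part in the changes of CSD2, FSD3 and the lists above was not tested. In bulk buds, fewer cells of a type and less RNA per cell cannot be told apart.

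In total RNA, none of the 8 members was called between dxo1 and Col-0. Among 17718 genes 0.988% were called, 0.406% higher and 0.581% lower, and 2572 were at an unadjusted p under 0.05, 2 members among them. FSD3 had 23.9 and 24.3 CPM in dxo1 total RNA against 12.3 and 15.1 CPM in Col-0 total RNA, and MSD1 had 92.8 and 95.6 CPM in dxo1 against 59.1 and 67.9 CPM in Col-0. Neither pair of groups overlapped. Tapetum markers summed to 995 and 958 CPM in dxo1 total RNA against 2995 and 2804 CPM in Col-0 total RNA, and their part was not tested. The log2 changes were 0.83 ± 0.27 (SE, edgeR adjusted p = 0.168) for FSD3 and 0.57 ± 0.23 (adjusted p = 0.261) for MSD1.

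Both passed in edgeR fits without the capture libraries (adjusted p of 0.0147 for FSD3 and 0.0166 for MSD1) and without either Col-0 capture library (0.0174 and 0.0169 for FSD3, 0.0298 and 0.0299 for MSD1). The fit without the capture libraries called 2357 genes in all. In fits without any other single library no member passed, and almost no gene of any kind did. Over all fits with 1 library left out, the log2 changes were 0.68 to 0.96 for FSD3 and 0.48 to 0.67 for MSD1. FSD1 had 1.75 and 0.853 CPM in dxo1 total RNA against 0.213 and 0 CPM in Col-0 total RNA, with 12 counts over the 2 dxo1 libraries and 1 over the 2 Col-0 libraries, and the test did not pass (log2 2.75 ± 1.94, edgeR adjusted p = 0.591). CSD2 was at 0.26 ± 0.25, FSD2 at 0.06 ± 0.24, CSD1 at -0.08 ± 0.27, CSD3 at -0.22 ± 0.37 and CCS at -0.19 ± 0.28. None of the genes tested on the copper, peroxide, NADPH oxidase, plastid polymerase and helper lists was called in total RNA.

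**Figure D3:**
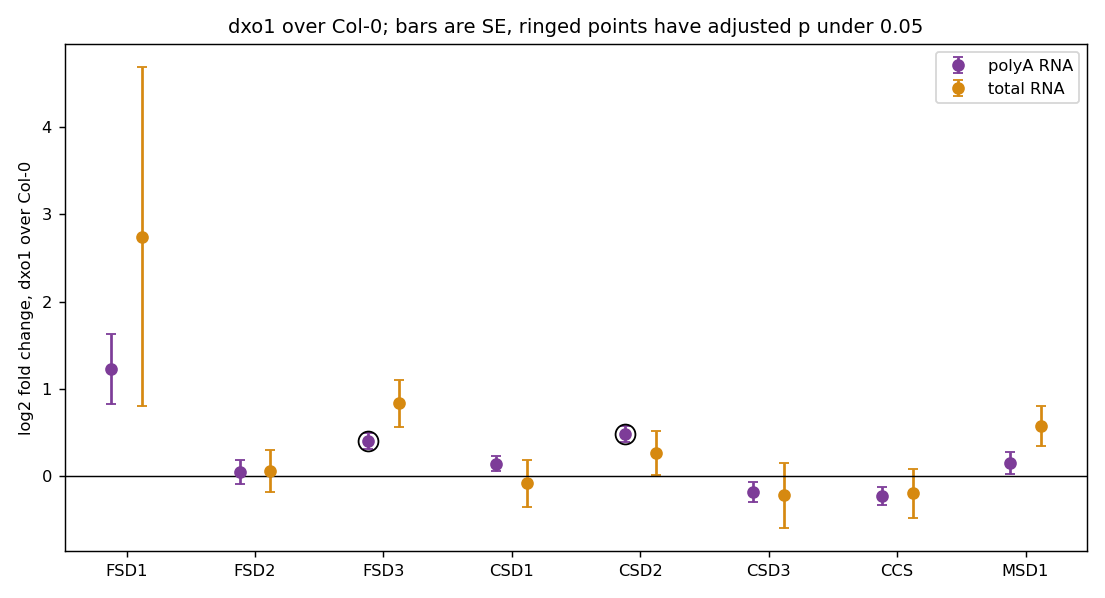
Log2 fold change of dxo1 over Col-0 for each gene in polyA RNA (purple) and total RNA (orange), with bars for the SE and rings for an edgeR adjusted p under 0.05. CSD2 at 0.48 and FSD3 at 0.40 in polyA RNA are ringed. FSD1 has the widest bars in both assays.

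GMUCT over polyA RNA in dxo1 sets the uncapped 5′ ends of a gene against its polyadenylated RNA. It split the 2 major copper/zinc enzymes: CSD2 was higher in GMUCT and CSD1 lower. In all, 1 member was higher and 4 were lower, where 64.8% of 20117 genes were called, 32.7% higher and 32% lower. The share called, 5 of 8, is near that of all genes. The median was -0.33 in the 8 genes and 0.00 in all genes. No GMUCT library of Col-0 was analysed here, so nothing in this comparison is about the effect of dxo1, and it shares the dxo1 polyA RNA libraries with the genotype comparison above.

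CSD1 had 106 and 97.98 CPM in dxo1 GMUCT against 375 and 380 CPM in dxo1 polyA RNA. The groups were far apart, at -1.89 ± 0.11 on the log2 scale (SE, edgeR adjusted p = 6.74e-06), and 3.54% of all genes lay lower. CSD2 had 499 and 379 CPM in GMUCT against 283 and 317 CPM in polyA RNA. Its groups did not overlap either, with a rise of 0.55 ± 0.15 (SE, edgeR adjusted p = 0.0122). Without dxo1 polyA RNA replicate 1 that call was lost (0.45, adjusted p = 0.066), and without every dxo1 library numbered 1 the value was 0.26.

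CSD3, the peroxisomal enzyme, was lower in GMUCT with 13.9 and 13.1 CPM against 24.2 and 21.96 CPM in polyA RNA (log2 -0.77 ± 0.13, edgeR adjusted p = 9.53e-04). FSD3 was lower with 33.4 and 34.2 CPM in GMUCT against 48.3 and 54.9 CPM in polyA RNA (log2 -0.61 ± 0.11, edgeR adjusted p = 0.00128). CCS had 50.4 and 45.4 CPM in GMUCT against 57.6 and 67.0 CPM in polyA RNA (log2 -0.38 ± 0.12, edgeR adjusted p = 0.0219). None of these groups overlapped, and the CCS call was lost without GMUCT replicate 2 (adjusted p = 0.0716) or without polyA RNA replicate 2 (0.133).

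FSD1 had 9.66 and 4.12 CPM in GMUCT against 11.9 and 4.98 CPM in polyA RNA, so the spread within each group exceeded the distance between them (log2 -0.29 ± 0.47, edgeR adjusted p = 0.611). Between libraries of the same number GMUCT was the lower one in both, and with the replicate number as a block the change was -0.29 (edgeR adjusted p = 0.288). Its sign turned without GMUCT replicate 2 (0.18) and without dxo1 polyA RNA replicate 1 (0.47). MSD1 had 158 and 132 CPM in GMUCT against 154 and 194 CPM in polyA RNA, with overlap (edgeR adjusted p = 0.144). It was called, at -0.56, without every dxo1 library numbered 1, at -0.44 (adjusted p = 0.0407) without the polyA RNA one alone, and at -0.40 (adjusted p = 0.0254) with library totals. FSD2 had 28.6 and 26.8 CPM in GMUCT against 19.8 and 24.98 CPM in polyA RNA, without overlap, at 0.31 ± 0.14 (edgeR adjusted p = 0.0771), and was called without dxo1 polyA RNA replicate 2 (0.48, adjusted p = 0.0249).

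The 4 known miR398 targets therefore did not move one way in GMUCT. CSD2 was higher, CSD1 and CCS were lower, and COX5b-1 had 42.7 and 36.6 CPM in GMUCT against 83.1 and 82.0 CPM in polyA RNA (log2 -1.06 ± 0.11, edgeR adjusted p = 7.52e-05). The tables give totals per gene, so whether 5′ ends pile up at a cleavage site was not analysed here. CSD1 overlaps 1 other annotated gene and CSD3 overlaps 2, and reads from the shared stretches can be lost or moved between them in counting.

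**Figure D4:**
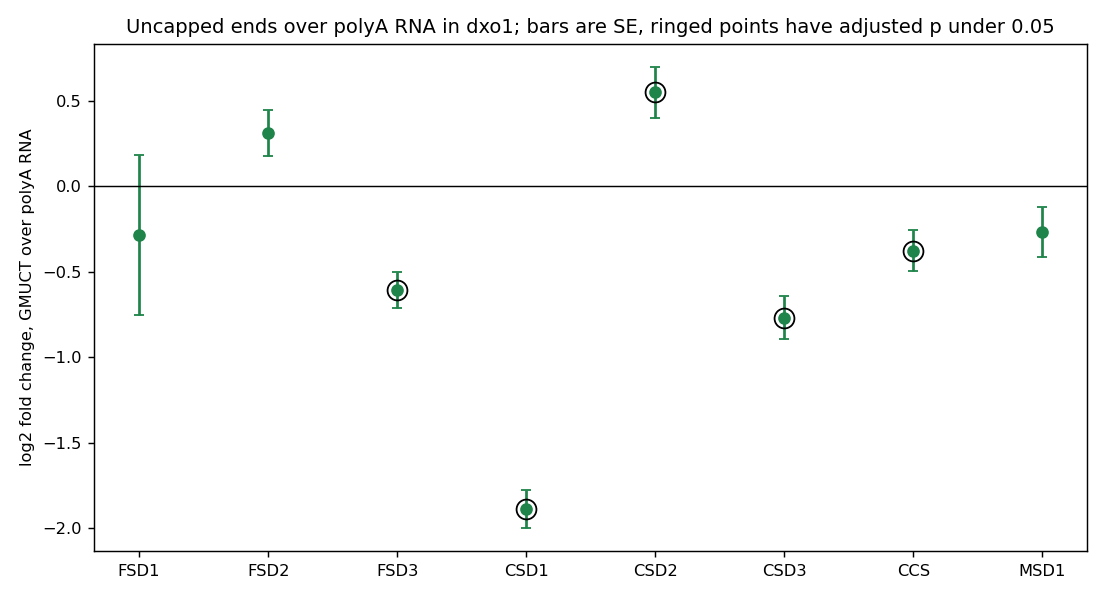
Log2 fold change of GMUCT over polyA RNA in dxo1 for each gene, with bars for the SE and rings for an edgeR adjusted p under 0.05. CSD1 lies lowest at -1.89, and CSD2 at 0.55 is the ringed gene above 0.

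Of the copper list, 5 of 18 genes were higher in GMUCT and 8 lower, where 64.8% of all genes were called. COPT1, the copper importer, had 434 and 393 CPM in GMUCT against 34.3 and 31.8 CPM in polyA RNA (log2 3.64 ± 0.12, SE, edgeR adjusted p = 2.54e-06). ATX1 had 471 and 421 CPM in GMUCT against 31.2 and 42.3 CPM in polyA RNA. Its close relative CCH went the other way, with 11.2 and 11.1 CPM in GMUCT against 100.03 and 103 CPM in polyA RNA (log2 -3.19 ± 0.11). PAA1, the copper pump of the plastid envelope, was higher by 1.64. Genes of the miR398 family were not compared in GMUCT.

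Of 10 enzymes of hydrogen peroxide removal, 3 were higher in GMUCT and 3 lower, led by APX6 with 174 and 209 CPM in GMUCT against 18.6 and 19.8 CPM in polyA RNA, and by APX3 with 78.8 and 71.2 CPM in GMUCT against 259 and 244 CPM in polyA RNA. APX1 was lower by log2 -1.33 and APX4 higher by 1.14. Among 7 NADPH oxidases, RBOHF and RBOHD were higher (0.99 and 0.92) and RBOHE and RBOHH lower (-0.86 and -0.85). The RBOHH call was lost in 4 of 6 fits that left out a library, at -1.22 to -0.34. Of the 10 proteins of the plastid RNA polymerase, the complex that FSD2 and FSD3 join, 6 were higher and 1 lower, PTAC12 leading with 404 and 339 CPM in GMUCT against 105 and 117 CPM in polyA RNA. PTAC10 and MURE were higher by 0.83 and 0.63, and PTAC14 was lower at -1.04. Of the helpers, MTM1, a mitochondrial carrier tied to MSD1, was higher (0.38), a call lost in 5 of 6 fits that left out a library.

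Small RNA reads from the members were few. The tables list reads of 19 to 25 nt by strand. In the 4 libraries of dxo1 and Col-0 together, the 8 genes had 552 counts, of which 331 (60.0%) were 25 nt long, 61 were 21 or 22 nt long, and 33 (5.98%) were antisense. FSD1 had 2 counts in dxo1 replicate 1 and 0 in the other 5 small RNA libraries, where 0 counts allow between 0.734 and 21.8 CPM, so it was not tested. CSD1 had 191 counts and CSD2 133, the most of the set. CSD3 had the highest antisense share, 11 of 33 counts.

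Between dxo1 and Col-0, none of the 7 genes tested was called, where 5.39% of 15358 transcripts were, 2.28% higher and 3.11% lower, and no member was at an unadjusted p under 0.05. DESeq2 called no member either. CSD1 had 22.2 and 33.9 CPM in dxo1 against 39.1 and 30.9 CPM in Col-0, with overlap, and CSD2 had 15.1 and 23.7 CPM in dxo1 against 23.4 and 23.5 CPM in Col-0. Replicate 2 of dxo1 held 137603 counts in all, with 24 in the members, and the precision of these values is limited by it. The median of the 7 genes was -0.18, against -0.32 over all transcripts.

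In dxo1 rdr6, 3 members were called higher than in dxo1 and 2 higher than in Col-0. CSD1 had 85.1 and 81.3 CPM in dxo1 rdr6, against 22.2 and 33.9 CPM in dxo1 and 39.1 and 30.9 CPM in Col-0. It was higher by 1.71 ± 0.44 than in dxo1 (SE, edgeR adjusted p = 0.00380) and by 1.27 ± 0.40 than in Col-0 (adjusted p = 0.0173). MSD1 had 29.4 and 23.4 CPM in dxo1 rdr6, against 12.4 and 10.2 CPM in dxo1 and 16.8 and 12.2 CPM in Col-0, with log2 changes of 1.12 and 0.94. CSD2, with 38.5 and 37.4 CPM in dxo1 rdr6, was called over dxo1 (1.20) and not over Col-0 (0.69, edgeR adjusted p = 0.0958), where it passed without either dxo1 library or without dxo1 rdr6 replicate 2. Of all transcripts, 36.4% were called against dxo1, 13.1% higher and 23.3% lower, and 31.7% against Col-0, 8.47% higher and 23.2% lower.

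The members' reads in dxo1 rdr6 were nearly all of 1 length, in libraries that stood apart. Of the members' counts, 98.5% and 98.9% were 25 nt long in dxo1 rdr6, 55.8% and 45.8% in dxo1, and 66.7% and 63.6% in Col-0. Over all transcripts the 25 nt share was 92.1% and 88.0% in dxo1 rdr6, 10.2% and 13.6% in dxo1, and 12.2% and 9.66% in Col-0. All 38514 and 43885 values above 0 in the dxo1 rdr6 tables were even numbers, whereas 65.2% to 76.9% of values in the other 4 were odd. Of the members' reads, 0 of 660 and 0 of 570 counts were antisense in dxo1 rdr6, against 17 of 240 and 2 of 24 in dxo1 and 3 of 90 and 11 of 198 in Col-0. The 0 counts in dxo1 rdr6 allow antisense shares of up to 0.579% and 0.669% (upper bounds of 95% Wilson intervals, for counting error only). These bounds take each count as 1 independent read. The even values leave that in doubt, so the bounds may be too narrow.

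At 19 to 24 nt the members had 10 and 6 counts in dxo1 rdr6, and only CSD1 and FSD3 could be tested. CSD1 stood 0.27 above dxo1 (edgeR adjusted p = 0.795) and 0.35 above Col-0 (0.679) at those lengths, and FSD3 was not called. No member could be tested at 21 and 22 nt alone or on the antisense strand alone. DESeq2 called no member in either comparison. With the dxo1 rdr6 counts divided by 2, only 5 members passed the filter: CCS, CSD1, CSD2, FSD3 and MSD1. Of these, 3 were called in each comparison, CSD2 being added over Col-0 (0.90, edgeR adjusted p = 0.00280). In those fits 5732 transcripts were called over dxo1 and 5872 over Col-0. With the counts as deposited, against dxo1 no member was called without Col-0 replicate 2 or without dxo1 replicate 1. Against Col-0 none was called without either Col-0 library or without dxo1 rdr6 replicate 1. Many other transcripts were still called in each of those fits. The lists had these calls: 2 higher and 1 lower of 14 copper genes against dxo1 and 1 higher against Col-0, 1 and 1 of 9 peroxide genes against dxo1 and 1 lower against Col-0, 1 lower of 4 NADPH oxidases against dxo1 and 1 higher and 1 lower against Col-0, 0 of 10 plastid polymerase proteins against dxo1 and 1 higher against Col-0, and 1 of 2 helpers higher in both.

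**Figure D5:**
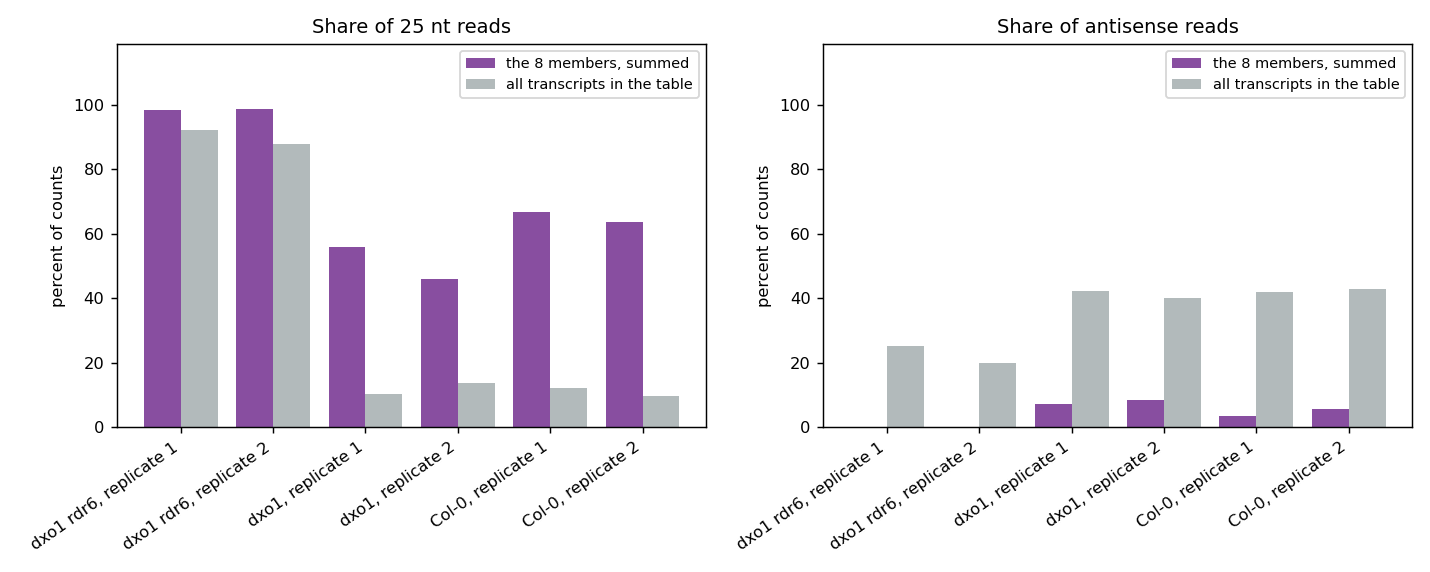
Share of 25 nt reads (left) and of antisense reads (right), in percent of counts, for the 8 genes summed (purple) and for all transcripts in the table (grey), by small RNA library from dxo1 rdr6 on the left to Col-0 on the right. The 25 nt share of the members is 98.5% and 98.9% in dxo1 rdr6 and 45.8% to 66.7% in the other 4 libraries, and their antisense share is 0 in dxo1 rdr6.

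Across the 14 libraries of gene counts, members varied together only in part. Pearson's r of log2 CPM was 0.83 between FSD1 and MSD1, 0.81 between CSD1 and CSD3, -0.41 between CSD1 and CSD2, and -0.08 between FSD1 and FSD3. These values are descriptions over libraries that share assay, depth and plants. Among 17314 genes, those most like FSD1 were AT2G19750 (0.97), AT4G18372 (0.96), AT4G00165 (0.96), AT3G07460 (0.95) and AT3G56880 (0.95), given by identifier because the annotation has no symbol for them. Those most like CSD2 were AT4G21720 (0.98), SDG35 (0.97), AT1G65030 (0.96), IDD2 (0.96) and AT3G53630 (0.95).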

How the data were processed

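Gene counts, per the labels from strand-specific libraries of Qiazol and miRNeasy RNA, were used as deposited: raw counts per gene, with cutadapt, STAR 2.4.2a, HTSeq and TAIR10 named in the submitters' processing notes. The strand setting of counting, the capture chemistry and the tool behind the small RNA counts are not given in the sources used here. HTSeq rows that name no gene, 18.2 to 96.1% of a library, were left out. For each first transcript model, all lengths and both strands of small RNA were added up.

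Counts were fitted in R 4.3.3 with edgeR 4.0.16 (filterByExpr minimum count 10, TMM factors, two-sided quasi-likelihood F test, Benjamini-Hochberg adjustment over all genes tested, threshold 0.05). The fits held the 8 capture and total RNA libraries, the 4 polyA RNA libraries, the GMUCT libraries with all polyA RNA libraries, and the 6 small RNA libraries. CPM are TMM-scaled within a fit, so polyA RNA values differ slightly between fits; marker sums and DXO1 values use library totals. SE is the log2 change over the square root of F. Ratios of summed counts have exact 95% binomial intervals. All 8 members passed the filter in the gene count fits and 7 in small RNA.

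Members and lists were chosen with earlier results of these data known. Of each list, up to 4 passing genes of lowest p are named, and the miR398 genes. COPT1 in polyA RNA, COX5b-1, MIR408 in Col-0 and the neighbours of FSD1 were added after their values were seen. So were the copper genes whose capture is given over polyA RNA. Capture lists other than copper economy, and small RNA lists, are given as counts. DESeq2 1.42.0, other scalings, no filter, the replicate block and leaving out libraries were alternatives. Fits were tested on simulated data. Identifiers were matched to RefSeq for 28009 of 28775 genes. Chi-square per degree of freedom between replicates was 2.26 to 33.7, so none was a copy.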

Additional observations from a re-analysis of the deposited data

How the results depend on the processing

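Each library was left out in turn, giving 0 to 4 members called between dxo1 and Col-0 in polyA RNA, 0 to 2 in total RNA, 4 to 5 in GMUCT over polyA RNA, and 0 to 3 in small RNA for dxo1 rdr6 over dxo1 and over Col-0 alike. For FSD1, capture over total RNA ranged on the log2 scale from 4.88 to 5.89 in dxo1 and from 6.90 to 10.61 in Col-0. Changes that turned sign in this way were FSD2 (-0.12 to 0.20) and MSD1 (-0.019 to 0.30) in polyA RNA, CSD1 (-0.29 to 0.11) and FSD2 (-0.080 to 0.17) in total RNA, FSD1 in GMUCT (-1.05 to 0.47), and CCS (-0.61 to 0.69), FSD2 (-5.75 to 0.31), FSD3 (-0.018 to 0.35) and MSD1 (-0.47 to 0.14) in small RNA of dxo1 over Col-0. None of those was called in the fit of all libraries. Capture over total RNA in Col-0, given without a test, also turned sign for CCS (-0.65 to 0.43), CSD1 (-0.48 to 0.12), CSD3 (-0.86 to 0.73) and FSD3 (-0.24 to 0.45). The number called over all genes or transcripts also moved widely between these fits in polyA RNA, total RNA and small RNA. The causes were not tested.

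With polyA RNA as the reference, FSD1 capture was 3.26 in dxo1 and 4.57 in Col-0, and library totals gave 6.10 in dxo1. The total RNA libraries alone gave 2 members called of 7 tested, where 2357 genes were called in all. For dxo1 rdr6 small RNA, DESeq2 called 2723 transcripts over dxo1 and 3009 over Col-0, and 0 members in either. The count was also 0 with 19 to 24 nt reads, with or without dividing by 2, where only CSD1 and FSD3 could be tested, and with 21 and 22 nt or antisense reads, where no member could be, so those counts say nothing of the others. Over Col-0, 0 members were called with the replicate block, where 4239 of all transcripts were. With library totals 6 members were called, where 9723 of all transcripts were. With TMM factors and no block, 4871 transcripts were called. In small RNA of dxo1 over Col-0, library totals turned CSD1 to 0.51, CSD2 to 0.40, CSD3 to 0.34, FSD2 to 0.63 and MSD1 to 0.64. There CSD1 was 0.076 with 19 to 24 nt and 0.035 with those and dxo1 rdr6 counts divided by 2. MSD1 was 0.23 with dxo1 rdr6 counts of all lengths divided by 2 and 0.23 without dxo1 rdr6, and FSD3 was -0.038 with the replicate block.

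Genes called in polyA RNA numbered 5932. The number moved widely with 1 library left out, down without a Col-0 library and up without a dxo1 library. Such a fit has 1 library in a group, so its calls rest on the spread of the other group alone. In total RNA 175 were called, against 0 to 2213 with 1 library left out, 2357 with total RNA alone, 1081 with no filter, 289 with DESeq2, 19 with the block and 0 with library totals. In small RNA 828 were called between dxo1 and Col-0, against 19 to 1972 with 1 library left out.

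The replicate block gave 0 members called in total RNA, 3 in polyA RNA, 5 in GMUCT and 2 in dxo1 rdr6 over dxo1. Over all genes or transcripts it called 19, 6521, 13806 and 4472, in that order. Replicate differences of 2 groups correlated at -0.209 to 0.223, and at 0.561 between dxo1 polyA RNA and GMUCT. With 2 libraries a group and no label that ties a number to shared plants, the numbers were not taken as pairs, though that last value is a hint of it. Low counts limit FSD1 in total RNA and every gene in dxo1 small RNA replicate 2.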
